A study of Mus musculus with 8 samples.

Results

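The data describe 32 mouse genes of blood coagulation and fibrinolysis, from a table of 52195 genes measured by bulk RNA-seq in 4 tissues. The genes were taken by symbol, with earlier results of these data known. Of the 32, 22 encode plasma factors known to be made by hepatocytes and 10 encode factors known from vessel walls, blood cells or tissue cells. Liver, kidney, lung and small intestine were each represented by 2 libraries, 8 in all, of poly(A) RNA from untreated C57BL/6 mice aged 6 to 10 weeks, given as male C57BL/6J in the methods, with no genetic change or agent in any group. The study states that the 2 libraries of a tissue are from different mice, and its methods describe all 4 tissues as excised from each mouse, though the labels do not tie a replicate number to a mouse across tissues.

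Coagulation is a cascade in which circulating proenzymes are cut in turn into active proteases, ending with thrombin, which turns fibrinogen into a fibrin clot. Tissue factor starts the cascade outside the vessel, antithrombin, the protein C system and tissue factor pathway inhibitor hold it back, and plasmin, released from plasminogen by its activators, dissolves the clot. The liver is known to secrete most of the circulating factors, whereas endothelium carries thrombomodulin, the protein C receptor and von Willebrand factor.

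Levels are given as FPKM, fragments per kilobase of exon and per unit of library size, so they are per length and can be set beside each other between genes. A gene was called higher or lower in a tissue against the mean of the other 3 at an adjusted p under 0.05 by limma and an absolute difference over 1 on the log2(FPKM + 1) scale, which understates the change of low genes. The libraries held between 9164183 reads counted on genes (liver 1) and 21444657 (kidney 1), at which 3 reads on an exon length of 1 kb correspond to an FPKM of 0.140 to 0.327. Values below 3 reads were read as not detectable at this depth, and this floor covers counting error only. Marker genes followed the tissue labels, since 7 of 7 hepatocyte markers were called higher in liver, 7 of 7 tubule markers in kidney, 6 of 6 lung epithelial markers in lung and 7 of 7 intestinal epithelial markers in small intestine. The small intestine libraries also held pancreatic acinar transcripts, summing to 2717 and 1250 FPKM over 7 markers. All 8 endothelial markers were called higher in lung, where their FPKM summed to 769 and 982, against 12.97 to 46.9 in the other libraries. In bulk tissue, fewer cells of a type and less RNA per cell cannot be told apart.

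The sum of the 22 plasma factors was 5877 and 5969 FPKM in the 2 liver libraries, 322 and 284 in kidney, 63.0 and 47.4 in lung and 18.7 and 14.1 in small intestine. The sum of the 10 vessel and tissue factors was lowest in liver, at 5.22 and 4.99 FPKM, and reached 10.8 and 10.5 in small intestine, 32.6 and 22.3 in kidney and 297 and 291 in lung. Kidney was thus the next highest tissue in both sums. The libraries of different tissues did not overlap in either sum.

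**Figure D1:**
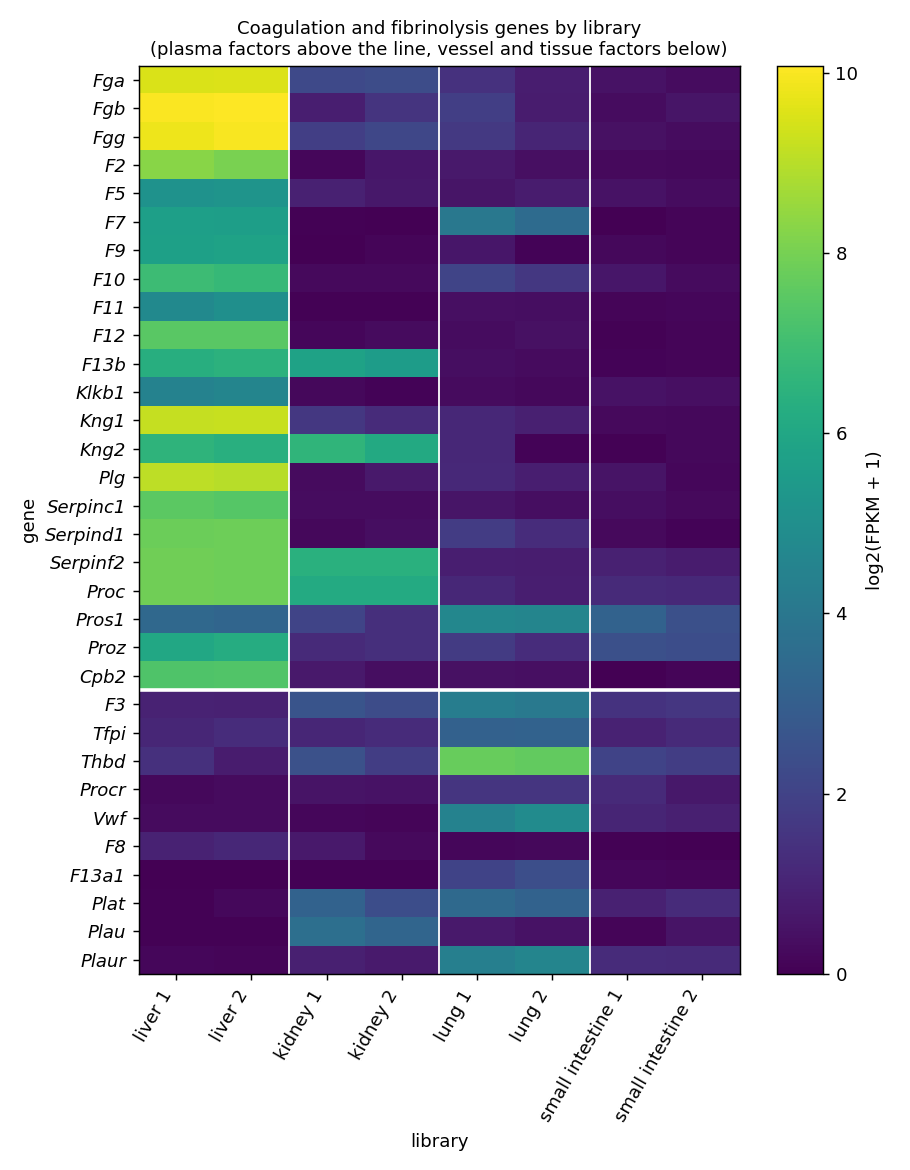
Level of each of the 32 genes in each library as log2(FPKM + 1), in colour, with plasma factors above the white line and vessel and tissue factors below. The upper block is bright in both liver libraries, with F13b, Kng2, Serpinf2 and Proc also bright in kidney, and F7 and Pros1 in lung, while most of the lower block peaks in lung.

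Several of the plasma factor genes lie side by side in the genome. The fibrinogen genes stand on chromosome 3 in the order Fgg, Fga and Fgb, with gaps of 11026 and 6513 bases and Fgb on the opposite strand. F7, F10 and Proz follow one another on the plus strand of chromosome 8 with gaps of 1498 and 4237 bases, and on the same chromosome F11 and Klkb1 lie 4657 bases apart. Kng2 and Kng1 on chromosome 16 are 28382 bases apart on opposite strands. The annotation, GENCODE M21 on GRCm38, has no protein-coding gene inside any of these gaps.

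Promoters are printed for the fibrinogen cluster, whose 3 genes had like levels in liver, for the neighbours F7 and F10, whose levels parted in lung, and for F13b, Kng2 and Serpinf2, which were also high in kidney. They come from RefSeq on build GRCm38.p6 and run 5′ to 3′ from 250 bases before to 50 after the annotated start. Capitals mark a C/EBP motif (TTGCNNAA), bound by a family of factors known from hepatocytes and other cells, on either strand.
Fgg, chr3:83007474-83007773, plus strand: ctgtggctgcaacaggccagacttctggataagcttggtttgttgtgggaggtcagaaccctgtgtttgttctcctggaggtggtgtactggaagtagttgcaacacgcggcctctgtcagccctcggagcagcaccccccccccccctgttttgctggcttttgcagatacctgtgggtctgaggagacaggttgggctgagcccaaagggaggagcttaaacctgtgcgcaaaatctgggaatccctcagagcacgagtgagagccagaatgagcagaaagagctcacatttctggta
Fga, chr3:83025903-83026202, plus strand: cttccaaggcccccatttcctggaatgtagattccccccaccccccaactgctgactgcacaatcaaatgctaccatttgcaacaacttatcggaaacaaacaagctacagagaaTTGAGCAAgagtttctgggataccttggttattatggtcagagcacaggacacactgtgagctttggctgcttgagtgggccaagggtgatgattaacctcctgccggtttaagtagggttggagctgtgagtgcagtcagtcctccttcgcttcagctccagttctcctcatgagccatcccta
Fgb, chr3:83049814-83050113, minus strand: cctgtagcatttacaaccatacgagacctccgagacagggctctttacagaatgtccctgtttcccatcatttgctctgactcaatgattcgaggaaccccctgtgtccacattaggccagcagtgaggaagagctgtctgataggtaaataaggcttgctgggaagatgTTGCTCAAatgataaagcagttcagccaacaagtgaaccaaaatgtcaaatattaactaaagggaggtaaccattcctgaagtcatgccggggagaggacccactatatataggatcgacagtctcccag
F7, chr8:13025784-13026083, plus strand: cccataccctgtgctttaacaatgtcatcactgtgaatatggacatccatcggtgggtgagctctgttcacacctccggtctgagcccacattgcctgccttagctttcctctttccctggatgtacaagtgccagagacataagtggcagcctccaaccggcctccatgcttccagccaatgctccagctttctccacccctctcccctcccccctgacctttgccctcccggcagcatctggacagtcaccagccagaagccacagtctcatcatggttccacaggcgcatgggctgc
F10, chr8:13037058-13037357, plus strand: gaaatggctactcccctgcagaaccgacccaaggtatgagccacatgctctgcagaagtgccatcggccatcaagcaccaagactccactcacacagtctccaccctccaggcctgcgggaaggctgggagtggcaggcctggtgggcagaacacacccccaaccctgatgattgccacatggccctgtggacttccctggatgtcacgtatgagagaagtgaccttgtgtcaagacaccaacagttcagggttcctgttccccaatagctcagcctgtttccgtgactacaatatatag
F13b, chr1:139501457-139501756, plus strand: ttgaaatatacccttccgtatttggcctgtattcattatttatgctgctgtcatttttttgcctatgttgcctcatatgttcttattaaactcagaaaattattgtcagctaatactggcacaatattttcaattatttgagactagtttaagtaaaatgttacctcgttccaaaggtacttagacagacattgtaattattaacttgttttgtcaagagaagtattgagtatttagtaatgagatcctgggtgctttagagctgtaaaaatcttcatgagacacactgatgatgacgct
Kng2, chr16:23029052-23029351, minus strand: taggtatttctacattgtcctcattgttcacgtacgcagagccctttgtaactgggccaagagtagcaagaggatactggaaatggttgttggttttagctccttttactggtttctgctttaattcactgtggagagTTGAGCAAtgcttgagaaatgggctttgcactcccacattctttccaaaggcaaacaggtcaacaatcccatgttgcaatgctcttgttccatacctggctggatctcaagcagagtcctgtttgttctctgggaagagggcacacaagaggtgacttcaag
Serpinf2, chr11:75439452-75439751, minus strand: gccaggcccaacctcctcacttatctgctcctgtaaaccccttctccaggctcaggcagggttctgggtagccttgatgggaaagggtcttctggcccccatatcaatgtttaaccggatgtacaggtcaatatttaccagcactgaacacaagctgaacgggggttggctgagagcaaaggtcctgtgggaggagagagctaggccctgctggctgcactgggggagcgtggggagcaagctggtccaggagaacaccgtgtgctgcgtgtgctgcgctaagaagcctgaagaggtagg

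The C/EBP motif stood at -135 in Fga, -80 in Fgb and -112 in Kng2, counted from the annotated start, while Fgg, F7, F10, F13b and Serpinf2 held none in this window. Promoters were found for 25 of the 32 genes. The C/EBP motif stood in 8 of 19 (F9, F11, Fga, Fgb, Serpinc1, Kng2, Klkb1 and Cpb2) and in 2 of 6 of the others (Procr and Plaur), against 10.8% of all 32851 promoters. A nuclear receptor motif of HNF4 (CAAAGTCCA), present in 0.475% of all promoters, was in none of the 25. These are matches of letters and not tests of binding.

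In liver, 21 of the 22 plasma factors rose above the mean of the other tissues, and Pros1 did not. Over all 16328 genes tested, 6.56% were called higher and 32.7% lower in liver. The median log2 difference of the plasma factors was 5.77, against -0.72 over all genes. Of the vessel and tissue factors, 9 of 10 passed the filter on low values and F8 did not. In liver 6 of the 9 were called lower (F3, Vwf, Thbd, Plat, Plau and Plaur) and none higher, with a median of -1.64. As deposited, the median of all genes lay at 0.82 in lung, -0.34 in kidney and -0.01 in small intestine, so a change is read relative to these shifts. After median-of-ratios scaling these medians were between -0.14 and -0.02, all genes split into 2003 higher and 2274 lower in liver in place of 1071 and 5334, and all 22 plasma factors were called higher in liver, Pros1 included. In lung the split of all genes went from 6652 higher and 1349 lower to 2387 and 2616, and the members called higher there from 9 to 7.

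The tissue with the highest mean stood apart from the next highest for 27 of the 31 genes tested, against 34.5% of all genes, the order being taken from the same values. The 4 exceptions were F13b, Kng2, Procr and Plat.

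Fga, Fgb and Fgg encode the 3 chains of fibrinogen, the precursor of fibrin. Fga was measured at 726 and 754 FPKM in liver, 3.66 and 4.13 in kidney, 1.70 and 0.749 in lung and 0.390 and 0.264 in small intestine. Fgb reached 1036 and 1081 FPKM in liver, the highest level among the 32 genes, with 0.783 and 1.87 in kidney, 2.61 and 0.718 in lung and 0.252 and 0.487 in small intestine. Fgg was at 905 and 1007 FPKM in liver, 2.63 and 3.48 in kidney, 2.20 and 1.04 in lung and 0.357 and 0.253 in small intestine. Both liver libraries stood above every other library for each chain.

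The 3 chains kept near equal levels in liver, where Fga was 0.701 and 0.697 times and Fgg 0.873 and 0.931 times the level of Fgb. In kidney, Fga exceeded Fgb by 4.67 and 2.21 times and Fgg exceeded it by 3.36 and 1.87 times. These ratios within a library do not depend on scaling, and they were chosen after the values were seen. Fga was the next highest in kidney, at 0.526% of its liver level, and the difference between liver and kidney was 7.24 ± 0.22 (log2, SE; limma adjusted p = 3.34e-07). In kidney 2, which had the lower of the 2 ratios, the hepatocyte marker Alb was 2.62 times its level in kidney 1, and Fgb was 2.38, Fgg 1.32 and Fga 1.13 times, so the 3 chains differed between the kidney libraries by unequal factors. The part of hepatocyte transcripts in the kidney values was not tested.

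The proteases of the cascade were led by F2, which encodes prothrombin. F2 was at 313 and 261 FPKM in liver and between 0.132 and 0.602 in the other 6 libraries, a difference from the next tissue, lung, of 7.63 ± 0.21 (log2, SE; limma adjusted p = 2.29e-07). F10, the factor X gene, reached 118 and 107 FPKM in liver and 3.15 and 2.12 in lung, but no more than 0.509 in kidney and small intestine. F9, the factor IX gene, whose loss causes haemophilia B, was at 52.3 and 55.0 FPKM in liver and at 0.524 or less elsewhere. All 3 separated liver from the other libraries without overlap.

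F5, the cofactor that speeds the cutting of prothrombin, was at 33.8 and 36.2 FPKM in liver and between 0.261 and 0.916 elsewhere. Its liver values did not overlap those of any other tissue. Proz, encoding protein Z, a cofactor for the inhibition of activated factor X, was at 65.8 and 74.6 FPKM in liver and next highest in small intestine, at 4.45 and 4.23.

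The contact system, which can start clotting on a surface and releases bradykinin, comprises F12, F11, Klkb1 (plasma prekallikrein) and the kininogens. F12 was at 178 and 182 FPKM in liver and 0.369 or less elsewhere. F11 was at 26.7 and 31.6 FPKM in liver and 0.320 or less elsewhere, and Klkb1 at 21.4 and 23.3 in liver and 0.407 or less elsewhere. Klkb1 and F11 had the lowest liver levels of the plasma factors after Pros1, and 43.2% of the exon length of Klkb1 overlaps the annotated gene Gm45753, so its level depends on how shared reads were counted.

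Kng1 and Kng2 encode kininogens, the precursors of bradykinin. Kng1 was at 592 and 597 FPKM in liver, 2.08 and 1.35 in kidney, 1.17 and 0.866 in lung and 0.203 and 0.168 in small intestine. Kng2 was at 92.2 and 81.5 FPKM in liver, 96.1 and 67.9 in kidney, 1.18 and 0.0641 in lung and 0.0426 and 0.176 in small intestine. The liver and kidney values of Kng2 overlapped, and the difference of 0.10 ± 0.33 (log2, SE) did not pass the test (limma adjusted p = 0.864).

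Between these adjacent paralogs the ratio of Kng2 to Kng1 was 0.156 and 0.137 in liver but 46.2 and 50.2 in kidney. This contrast is independent of scaling. Of the distinct runs of 31 bases in the transcripts, 26.5% of Kng1 and 30.6% of Kng2 occur in the other gene, so the split of reads between them is uncertain where the counting could assign shared reads to either.

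Among the inhibitors, Serpinc1 (antithrombin) was at 185 and 169 FPKM in liver and 0.479 or less elsewhere, with 34.4% of its exon length overlapping Zbtb37. Serpind1 (heparin cofactor II) was at 226 and 228 FPKM in liver, 2.43 and 1.40 in lung and 0.290 or less in kidney and small intestine. Serpinf2, which encodes the plasmin inhibitor alpha-2-antiplasmin, was at 236 and 229 FPKM in liver and at 84.1 and 83.1 in kidney, but at 0.873 or less in lung and small intestine. Antithrombin and antiplasmin transcripts thus differed in kidney while both were high in liver.

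The protein C system shuts down thrombin generation. Proc (protein C) was at 235 and 232 FPKM in liver, 70.5 and 69.7 in kidney, 1.18 and 0.822 in lung and 1.30 and 1.24 in small intestine. Pros1, its cofactor protein S, was at 9.72 and 8.74 FPKM in liver, 3.17 and 1.58 in kidney, 24.2 and 23.2 in lung and 7.996 and 4.49 in small intestine. Pros1 was the plasma factor that did not peak in liver, since lung exceeded liver by 1.27 ± 0.29 (log2, SE; limma adjusted p = 0.00460), although after median-of-ratios scaling the difference was -0.28, with liver above lung.

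Fibrinolysis among the plasma factors was represented by Plg (plasminogen) and Cpb2, a carboxypeptidase that protects fibrin from plasmin. Plg was at 540 and 511 FPKM in liver and between 0.128 and 1.26 in the other libraries. Cpb2 was at 155 and 163 FPKM in liver and 0.630 or less elsewhere, and small intestine 1 had no read on it. Both were called higher in liver, by 8.42 ± 0.18 and 6.98 ± 0.15 (log2, SE).

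Outside liver, the median plasma factor stood at 0.288% of its liver level in kidney, 0.381% in lung and 0.119% in small intestine. These medians fell to 0.189%, 0.121% and 0.06586% after median-of-ratios scaling, and the lung median was 0.242% without lung 1. Hepatocyte markers measured the same way ranged from 0.165% to 0.618% in lung and from 0.0236% to 0.136% in small intestine. In kidney they ranged from 0.0714% to 0.574% for 6 of 7 markers, whereas Cyp2e1, an enzyme known also from kidney, was at 20.4%. The plasma factors above the whole range of these markers numbered 7 of 22 in kidney, with Cyp2e1 set aside after its value was seen, 9 in lung and 10 in small intestine. Among these, Kng2 in lung rested on lung 1, with 32 reads there and 2 in lung 2, while in small intestine F9 had 4 and 3 reads and F11 had 2 and 3.

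**Figure D2:**
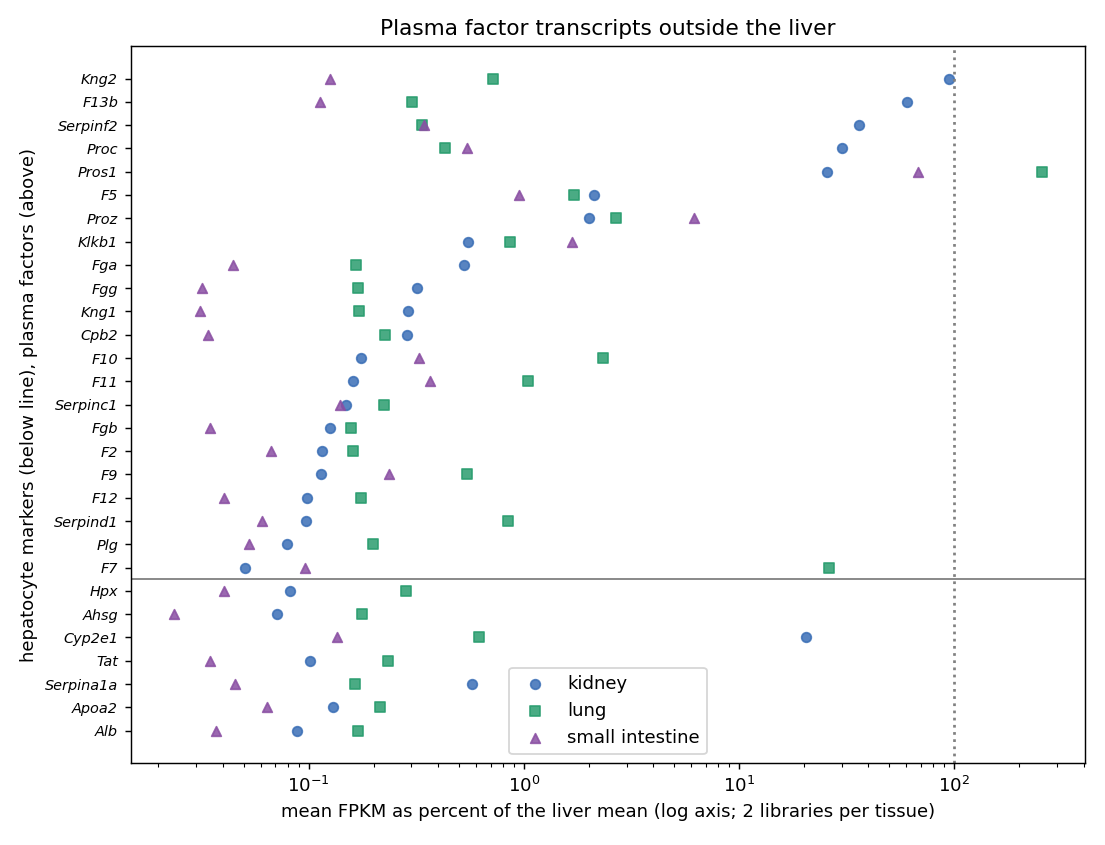
Mean FPKM in kidney, lung and small intestine as a percent of the liver mean, on a log axis, for the 22 plasma factors (above the line) and 7 hepatocyte markers (below). In kidney Kng2, F13b, Serpinf2, Proc and Pros1 lie between 25.8% and 94.4%, and in lung Pros1 at 257% and F7 at 26.1% stand apart from the other factors.

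In kidney 4 of the 22 plasma factors rose (F13b, Serpinf2, Proc and Kng2) and 18 fell, against 8.65% of all genes called higher and 16.1% lower. The lower call of Fga was lost at -0.87 with a pseudocount of 0.1 and at -0.89 with quantile normalization. It was also lost at -0.94 without mitochondrial genes and at -0.75 with limma-voom. The median of the 22 was -2.04, against -0.34 over all genes. The mean of the other tissues includes liver, so kidney was also set against lung and small intestine singly. Against lung, 5 of the 22 were higher in kidney (F13b, Fga, Serpinf2, Proc and Kng2) and 4 lower (F7, F10, Serpind1 and Pros1), beside 8.87% of all genes higher and 41.4% lower. Against small intestine, 7 were higher (the same 5 with Fgg and Kng1) and 2 lower (Pros1 and Proz), beside 10.7% and 18.8% of all genes. The kidney excess of Fga was 1.17 ± 0.22 over lung and 1.88 ± 0.22 over small intestine (log2, SE; limma adjusted p = 0.00199 and 0.000272).

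F13b, the carrier subunit of factor XIII, which cross-links fibrin, was at 79.4 and 87.9 FPKM in liver, 55.1 and 45.9 in kidney and 0.283 or less in the other 4 libraries. Liver exceeded kidney by 0.72 ± 0.16 (log2, SE; limma adjusted p = 0.00953), which is below the limit of 1 set for a call.

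The kidney levels of the 4 genes, as a percent of liver, were 94.4% for Kng2, 60.4% for F13b, 36.0% for Serpinf2 and 30.01% for Proc. After median-of-ratios scaling they were 63.2%, 41.4%, 24.9% and 20.8%, and the 4 remained called higher in kidney. Serpinf2 was lower in kidney than in liver by 1.46 ± 0.13 and Proc by 1.72 ± 0.15 (log2, SE), both called, though the Serpinf2 difference was 0.89 and not called when mitochondrial transcripts were left out of the sum used for scaling.

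The 2 kidney libraries differed in their content of hepatocyte transcripts. From kidney 1 to kidney 2, Alb went from 15.5 to 40.7 FPKM and Ahsg from 1.55 to 5.68, whereas over all 7 markers the ratio of kidney 2 to kidney 1 ran from 0.812 (Cyp2e1) to 4.54 (Tat). Of the 22 plasma factors, 11 had a ratio over 1, with a median of 1.05 and a range from 0 (F7) to 6.19 (F9). Both ends of this range rest on very low values. After median-of-ratios scaling, F7 was at 0.0487 in kidney 1 and 0 in kidney 2, and F9 at 0.0166 and 0.147. F2 and Plg were at 4.002 and 2.76 times, whereas Cpb2, Klkb1, F5 and Kng1, which were low in kidney, had ratios of 0.451, 0.456, 0.611 and 0.650. The 4 genes high in kidney had ratios of 0.988 for Serpinf2, 0.989 for Proc, 0.833 for F13b and 0.706 for Kng2. For 5 of the 22 (F10, F13b, Serpinf2, Proc and Kng2) the side of 1 depended on scaling. After median-of-ratios scaling 16 of the 22 plasma factors and 7 of 7 markers were over 1, with medians of 1.5 and 3.76. The 4 genes were then at 1.42 (Serpinf2), 1.42 (Proc), 1.19 (F13b) and 1.01 (Kng2). On both scales they lay below Alb, which was at 2.62 as deposited and 3.76 after this scaling. The part of hepatocyte transcripts in these levels was not tested.

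**Figure D3:**
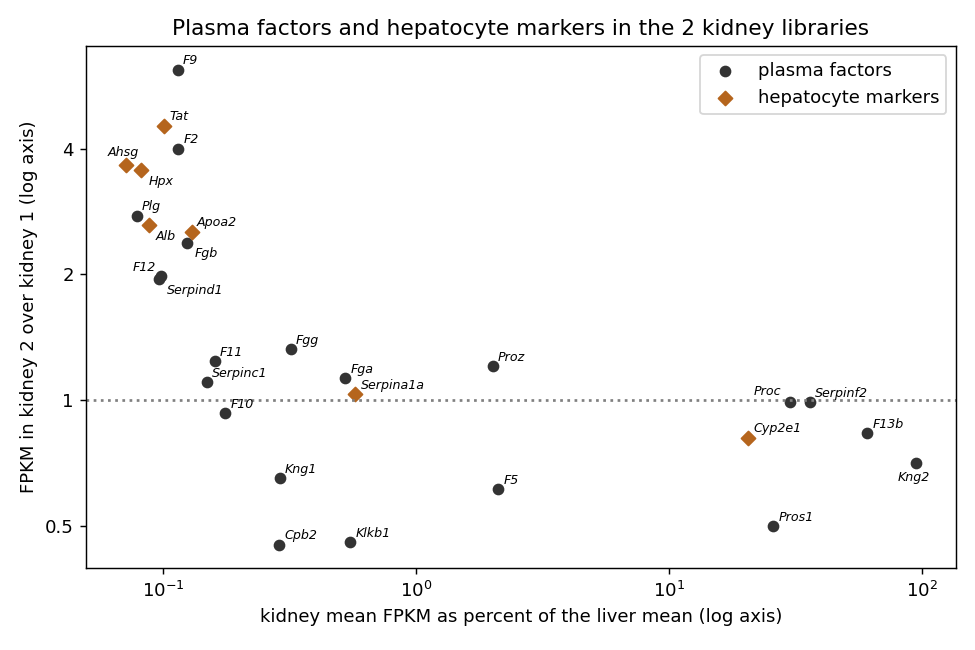
Ratio of FPKM in kidney 2 to kidney 1 against the kidney mean as a percent of the liver mean, both on log axes, for 21 plasma factors (black circles) and 7 hepatocyte markers (brown diamonds). F7, with no read in kidney 2, is left out, and Kng2, F13b, Serpinf2 and Proc lie at the right with ratios of 0.706 to 0.989 as deposited and 1.01 to 1.42 after median-of-ratios scaling, which is not drawn. The factors at the left spread over both sides of 1, with F2, F9 and Plg above it, as are Alb, Ahsg, Hpx and Tat, and Cpb2, Klkb1, F5 and Kng1 below it on both scales.

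Kng2 in lung was uneven, at 32 reads in lung 1 and 2 in lung 2, a ratio of 18.5. The 7 kidney tubule markers were also higher in lung 1, all with ratios over 1 and a median of 4.61, and Slc34a1 was at 2.85 and 0.499 FPKM. F13b, also high in kidney, had 7 reads in each lung library. Whether kidney transcripts entered lung 1 was not tested.

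In lung 2 plasma factors rose (F7 and Pros1), 19 fell and F10 was not called, against 40.7% of all genes called higher and 8.26% lower. The lower calls of F9 and F11 were lost with limma-voom, at -1.93 and -0.89. Members called lower in lung numbered 16 with limma-voom and 21 after median-of-ratios scaling. Here too the mean of the other tissues includes liver. Lung against small intestine alone had 4 plasma factors higher (F7, F10, Serpind1 and Pros1) and 0 lower, beside 30.6% of all genes higher and 10.1% lower. At an unadjusted p under 0.05 with limma the counts were 9 higher and 1 lower, and with limma-voom on recovered reads 10 higher and 1 lower were called. F10 and Serpind1 exceeded small intestine by 1.40 ± 0.20 and 1.33 ± 0.21 and kidney minus lung was -1.59 ± 0.20 and -1.24 ± 0.21 (log2, SE), all called. Against the mean of the other tissues, in contrast, Serpind1 was called lower in lung, a call lost at -0.38 with a pseudocount of 0.1, at -0.99 with one of 0.5, at -0.09 with limma-voom and at -0.99 without lung 2.

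F7 encodes the protease that tissue factor activates to start the cascade. It was at 50.4 and 48.9 FPKM in liver, 15.3 and 10.6 in lung, 0.0502 and 0 in kidney and 0 and 0.0950 in small intestine, with at most 2 reads in each of the last 4 libraries. Liver exceeded lung by 1.88 ± 0.20 (log2, SE; limma adjusted p = 7.53e-05), and kidney minus lung was -3.75 ± 0.20 (adjusted p = 3.28e-06).

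F7 in lung was 26.1% of its liver level, and 8.28% after median-of-ratios scaling, where its rise against the mean of the other tissues was 0.81 and no longer called, as was that of Pros1 at 0.90. In lung F7 stood at 4.84 and 5.02 times the level of F10, the gene that begins 1498 bases after its end, while in liver the ratio was 0.429 and 0.455. This ratio within each library is untouched by scaling and was chosen after the values were seen. Hepatocyte markers in lung did not exceed 0.618% of liver, and Serpind1, at 0.844%, and F10, at 2.34%, were also above that range. All 7 hepatocyte markers were higher in lung 1 than in lung 2, with a median ratio of 1.65, as were 20 of the 22 plasma factors, with a median of 1.46. The ratio was 1.43 for F7, 1.49 for F10 and 1.74 for Serpind1, and the part of hepatocyte transcripts in these values was not tested.

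**Figure D4:**
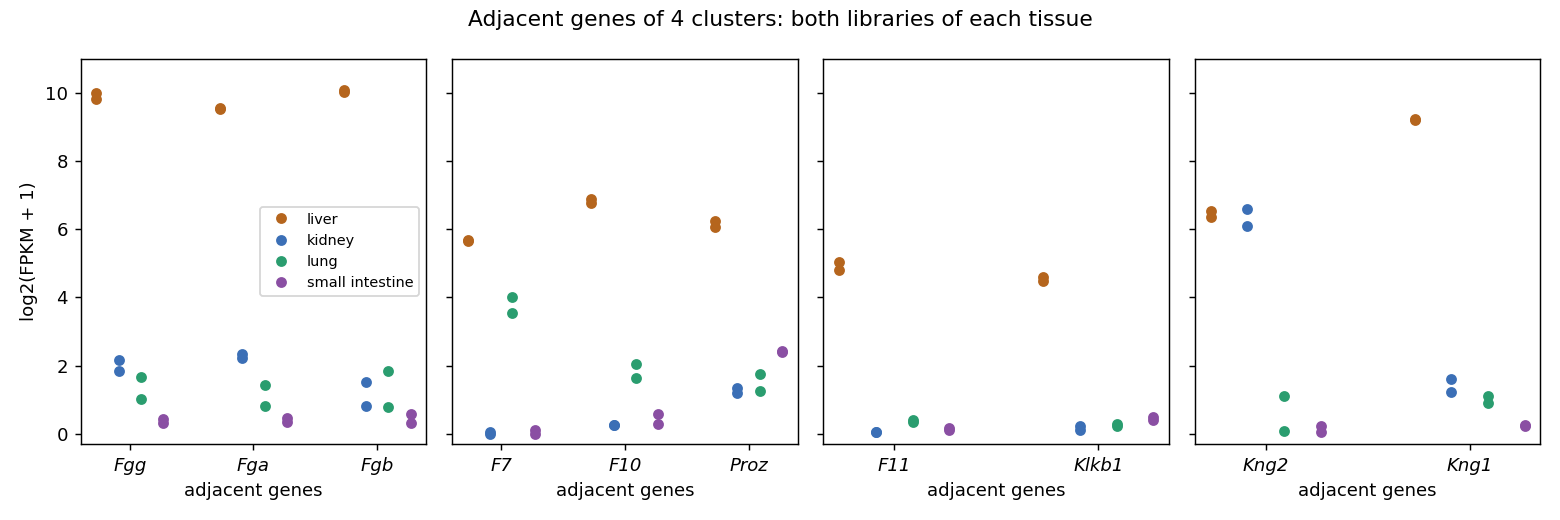
Levels of genes in 4 chromosomal clusters as log2(FPKM + 1), 1 point for each library, coloured by tissue, in chromosomal order. F7 in lung lies above F10 and Proz in lung, Kng2 in kidney lies with the liver points while Kng1 in kidney does not, and the fibrinogen genes and the F11 and Klkb1 pair are high in liver alone.

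Of the vessel and tissue factors, 7 of the 9 tested rose in lung (F3, F13a1, Vwf, Tfpi, Thbd, Plat and Plaur), beside 40.7% of all genes called higher there, with a median of 2.14 against 0.82 over all genes. Thbd encodes thrombomodulin, the endothelial receptor that turns thrombin into an activator of protein C. It was at 215 and 200 FPKM in lung, 4.63 and 2.51 in kidney, 3.10 and 2.56 in small intestine and 1.64 and 0.702 in liver. Lung exceeded kidney, the next highest, by 5.55 ± 0.28 (log2, SE; limma adjusted p = 2.78e-06).

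Vwf, the multimeric protein that tethers platelets and carries factor VIII, was at 21.0 and 28.5 FPKM in lung, 1.06 and 0.858 in small intestine, 0.224 and 0.229 in liver and 0.128 and 0.0971 in kidney. Lung exceeded small intestine by 3.70 ± 0.19 (log2, SE; limma adjusted p = 3.02e-06). The kidney values of Vwf were the lowest of the 4 tissues.

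The levels were also set against each of the 8 endothelial markers in the same library, since the markers differed in their own tissue order. Thbd per marker had its highest mean in lung for 7 of the 8 markers and in small intestine for Cldn5, and it was lowest in liver for 7 and in kidney for Emcn. Both lung libraries lay above all others for 5 markers (Kdr, Tie1, Egfl7, Esam and Emcn). Per Cdh5, the cadherin of endothelial junctions, Thbd was at 1.70 and 1.34 in lung, 1.37 and 1.42 in small intestine, 1.27 and 1.20 in kidney and 0.383 and 0.187 in liver, so lung and small intestine overlapped. Per Kdr, a receptor for vascular growth factor, it was at 10.01 and 5.86 in lung and 2.11 or less elsewhere.

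Vwf per marker had its highest mean in small intestine for 6 markers and in lung for 2 (Kdr and Emcn), and its lowest in kidney for all 8. Tfpi per marker was lowest in lung for 7 markers and in kidney for Emcn, and highest in small intestine for 6 and in liver for 2. Procr per marker was highest in small intestine for 7 and in liver for 1, and lowest in lung for 6. The tissue order thus depended on the marker chosen. The share of endothelial cells in each tissue was not measured, and its part in the lung levels was not tested.

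Procr encodes the endothelial protein C receptor. It was at 1.97 and 1.90 FPKM in lung, 1.32 and 0.565 in small intestine, 0.436 and 0.398 in kidney and 0.161 and 0.238 in liver. The difference of 0.62 ± 0.19 (log2, SE) between lung and small intestine had a limma adjusted p of 0.0203 but stayed under the limit of 1 for a call.

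F3 encodes tissue factor, the membrane protein that starts clotting. It was at 18.1 and 16.0 FPKM in lung, 5.17 and 4.05 in kidney, 1.82 and 1.99 in small intestine and 0.950 and 0.920 in liver, with no overlap between tissues. Lung exceeded kidney by 1.69 ± 0.18 (log2, SE; limma adjusted p = 9.10e-05), which was 0.69 and not called after median-of-ratios scaling.

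Tfpi, the inhibitor of the tissue factor and factor VIIa complex, was at 7.70 and 8.09 FPKM in lung and between 0.978 and 1.42 in the other 6 libraries, which overlapped. The difference between lung and liver was 1.98 ± 0.18 (log2, SE; limma adjusted p = 2.84e-05), and 0.75, not called, after median-of-ratios scaling. F13a1, the catalytic subunit of factor XIII, known from platelets and macrophages, was at 3.06 and 4.32 FPKM in lung and 0.143 or less elsewhere. Macrophage markers summed to 440 and 374 FPKM in lung and platelet markers to 37.0 and 60.4, both above the other tissues, and their part in the F13a1 level was not tested. F13a1 and F13b, whose products form 1 complex in plasma, thus had their highest levels in different tissues.

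**Figure D5:**
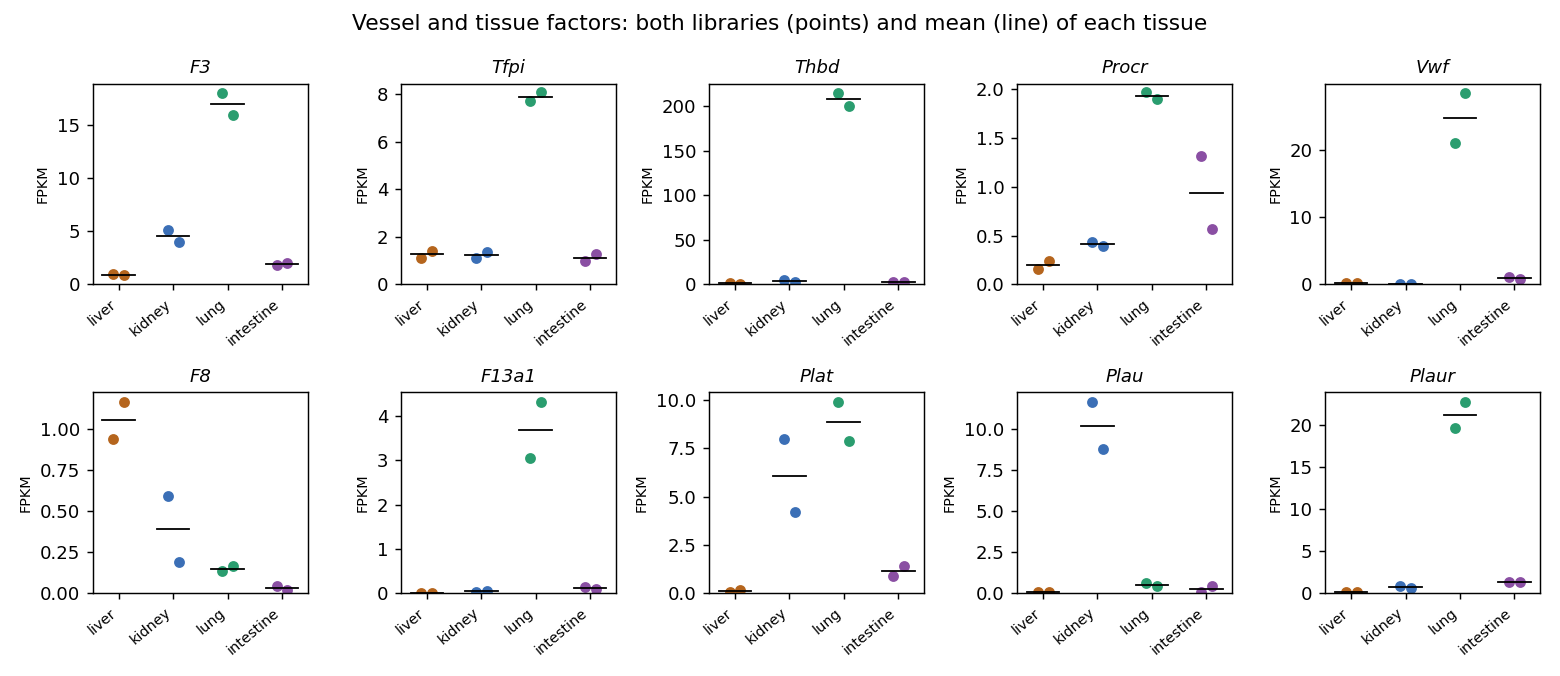
FPKM of the 10 vessel and tissue factors, with 1 point for each library and a line at the mean of each tissue, each panel on its own linear axis. F3, Tfpi, Thbd, Vwf, F13a1 and Plaur peak in lung, Plau in kidney and F8 in liver, and the kidney points of Plat reach into the range of the lung points.

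Fibrinolysis outside the plasma is started by Plat and Plau, the tissue-type and urokinase-type plasminogen activators, and by Plaur, the receptor that holds urokinase on cells. Plau was at 11.7 and 8.76 FPKM in kidney, 0.606 and 0.408 in lung, 0.0903 and 0.448 in small intestine and 0.0461 and 0.0409 in liver. Kidney exceeded lung by 2.89 ± 0.20 (log2, SE; limma adjusted p = 1.06e-05), and Plau was the only gene of the 31 tested with its highest mean in kidney as deposited. Its receptor Plaur was highest in another tissue, at 19.6 and 22.8 FPKM in lung, 1.39 and 1.28 in small intestine, 0.855 and 0.640 in kidney and 0.125 and 0.111 in liver, and lung exceeded small intestine by 3.25 ± 0.17 (log2, SE; limma adjusted p = 3.29e-06).

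Plat was at 9.91 and 7.88 FPKM in lung, 7.98 and 4.21 in kidney, 0.890 and 1.39 in small intestine and 0.0350 and 0.155 in liver. Lung and kidney overlapped, with a difference of 0.52 ± 0.28 (log2, SE; limma adjusted p = 0.131), and after median-of-ratios scaling the kidney mean of 6.80 lay above the lung mean of 4.80. Its rise in kidney against the other tissues was 1.27 ± 0.23, and 0.88 and not called without kidney 1. The ratio of Plat to Plau separated kidney from lung, at 0.684 and 0.481 in kidney and 16.4 and 19.3 in lung. In kidney the substrate of both, Plg, was at 0.220 and 0.608 FPKM. Of the 9 vessel and tissue factors tested, Plat and Plau were called higher in kidney and Vwf, Thbd and Plaur lower. Over all genes 8.65% were called higher there and 16.1% lower. The lower calls are against a mean that includes lung. For Thbd, liver minus kidney was -1.07 ± 0.28 and kidney minus small intestine 0.22 ± 0.28 (log2, SE; limma adjusted p = 0.0201 and 0.569), and its call was lost at -0.94 without mitochondrial genes. That of Plaur was lost at -0.79 after median-of-ratios scaling.

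F8, the factor VIII gene, whose loss causes haemophilia A, did not pass the filter on low values. It was at 0.936 and 1.16 FPKM in liver, 0.593 and 0.192 in kidney, 0.134 and 0.162 in lung and 0.0431 and 0.0178 in small intestine, with 85 and 119 reads in liver. Without the filter, liver exceeded the mean of the other tissues by 0.80 ± 0.12 (log2, SE; limma adjusted p = 0.00262), under the limit of 1 for a call. Vwf, the carrier of its protein, was highest in lung. Stab2, a marker of liver sinusoidal endothelium, was at 2.98 and 3.80 FPKM in liver and 0.548 or less elsewhere. F8 was at 0.314 and 0.306 times Stab2 in liver, 1.08 and 0.621 in kidney, 0.639 and 0.655 in lung and 0.707 and 0.161 in small intestine, so per Stab2 it was not highest in liver. Ratios of F8 to the other sinusoidal markers were not computed. Of the 6 sinusoidal markers, 5 were called higher in liver and 1, Lyve1, lower. The sum of the 6 was 61.0 and 53.6 FPKM in liver but 131 and 118 in lung.

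In small intestine 0 of the 31 tested genes were called higher and 22 were called lower (20 plasma factors, Thbd and Plau), against 13.7% and 11.3% of all genes. For the plasma factors this mean includes liver, and against kidney or lung alone 7 and 4 of the 22 were lower in small intestine and 2 and 0 higher, as given above. With limma-voom on recovered reads, 8 and 10 were lower and 3 and 1 higher. The count of higher genes was also 0 at an unadjusted p under 0.05 with limma and 0 with limma-voom on recovered reads. The plasma factors not called lower were Pros1, at -0.42 ± 0.24, and Proz, at -0.56 ± 0.16 (log2, SE). The lower call of Plau was lost with limma-voom, at -1.58, without kidney 1, at -0.98, and without small intestine 1, at -0.84.

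The wider pathway was described by 8 lists of 84 genes, of which 83 were in the table. Of 13 tested plasma regulators, all were called higher in liver, beside 6.56% of all genes, with a median of 4.87 against -0.72 over all genes. Ahsg (fetuin-A) was at 5639 and 4493 FPKM, Apoh (beta-2-glycoprotein I) at 976 and 949, and Vtn (vitronectin) at 845 and 975. Hrg, a plasminogen-binding glycoprotein, was at 421 and 354 FPKM and Mbl2, a lectin of the complement system, at 241 and 297.

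Of 9 tested genes in a list of vessel wall products, 8 were called higher and 0 lower in lung, 7 were lower in liver, 5 lower in kidney, and 1 was higher and 2 lower in small intestine. The list holds antithrombotic genes such as Entpd1, Nos3 and Ptgis, but also Fgl2, a prothrombinase, which was among the 8 in lung, at 1.83, and was the 1 higher in small intestine, at 2.34 (log2), and Tbxas1, the thromboxane synthase, which was not called in lung. Pecam1, an endothelial adhesion molecule, was at 99.1 and 109 FPKM in lung and Ptgis, the prostacyclin synthase, at 29.5 and 29.7, against at most 5.196 and 0.908 elsewhere. The platelet list had 7 of 9 higher and 0 lower in lung, with a median of 1.11 beside 0.82 for all genes, while 3 were lower in liver, 6 lower in kidney, and 2 higher and 1 lower in small intestine. Over all genes 40.7% were called higher in lung, 32.7% lower in liver, 16.1% lower in kidney, and 13.7% higher and 11.3% lower in small intestine. The platelet list's lower counts in liver and small intestine were thus near the share of all genes.

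Among the protease inhibitors, 4 of 6 tested genes were called higher in liver, beside 6.56% of all genes, and 3 were higher and 2 lower in lung, beside 40.7% and 8.26%. In kidney 2 were lower, and in small intestine 5, beside 16.1% and 11.3% of all genes. Pzp, a broad protease inhibitor, was at 433 and 425 FPKM in liver and 9.91 or less elsewhere. Serping1, the C1 inhibitor that blocks factor XIIa and kallikrein, was at 211 and 190 FPKM in liver and 188 and 200 in lung, so these tissues overlapped, while kidney and small intestine stayed at 18.5 or less. The clearance receptors had 4 of 7 higher and 1 lower in liver, 6 lower in kidney, 3 higher and 2 lower in lung and 3 lower in small intestine, beside the shares just given and 32.7% of all genes lower in liver. Asgr1, the asialoglycoprotein receptor, was at 222 and 216 FPKM in liver.

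Tissue kallikreins and matrix proteases had 4 of 8 called higher and 3 lower in kidney, beside 8.65% and 16.1% of all genes. They had 2 higher and 6 lower in liver, beside 6.56% and 32.7%, 3 higher and 3 lower in lung, beside 40.7% and 8.26%, and 4 higher and 3 lower in small intestine, beside 13.7% and 11.3%. Klk1, the tissue kallikrein that cuts kininogen, was at 1339 and 899 FPKM in kidney, the tissue in which Kng2 was also high, with 98.3 and 64.1 in small intestine and 4.18 or less elsewhere. Prss8, a membrane-anchored protease, was at 131 and 126 FPKM in kidney, and Hpn (hepsin), a protease able to activate factor VII, at 77.5 and 58.1 in kidney and 68.4 and 61.4 in liver. Tmprss6, a protease of iron regulation, was at 114 and 140 FPKM in liver and 0.378 or less elsewhere.

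The list of thrombin, plasmin and kinin receptors and plasminogen-binding proteins had 6 of 10 higher and 1 lower in lung, beside 40.7% and 8.26% of all genes, with a median of 1.12 beside 0.82. The 6 were F2r, Anxa2, Plgrkt, the endocytic receptor Lrp1 and the bradykinin receptors Bdkrb1, at 1.49, and Bdkrb2, at 1.16 (log2). In small intestine 5 were higher and 2 lower, beside 13.7% and 11.3%. In liver 1 was higher and 4 lower, beside 6.56% and 32.7%, and in kidney 1 was higher and 3 lower, beside 8.65% and 16.1%. Anxa2 and S100a10, which together bind plasminogen and its activator on the cell surface, were at 157 and 210 and at 176 and 236 FPKM in small intestine, and at 178 and 169 and at 95.7 and 91.3 in lung. Eno1, also a plasminogen-binding protein, was at 143 and 117 FPKM in small intestine. Lrp2, an endocytic receptor of the tubule that takes up filtered proteins, was at 65.5 and 26.1 FPKM in kidney, with 2.08 or less elsewhere. The 9 vitamin K and secretion genes had 1 higher and 1 lower in liver, 1 and 1 in kidney, 3 and 1 in lung and 1 and 3 in small intestine, beside 6.56% and 32.7%, 8.65% and 16.1%, 40.7% and 8.26% and 13.7% and 11.3% of all genes.

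Hnf4a, a nuclear receptor known to control many hepatocyte genes, was at 61.5 and 60.3 FPKM in liver, 93.8 and 62.2 in kidney and 58.7 and 79.3 in small intestine, but at 0.764 and 0.350 in lung. Hnf4a belongs to a list of 10 tested transcription factors, 8 known from hepatocytes and 2, Klf2 and Klf4, known from endothelium, Klf4 also from gut epithelium. Of the 10, 7 were called higher and 2 lower in liver, 2 and 7 in kidney, 6 and 4 in lung and 4 and 2 in small intestine. The shares of all genes called higher and lower were 6.56% and 32.7% in liver, 8.65% and 16.1% in kidney, 40.7% and 8.26% in lung and 13.7% and 11.3% in small intestine. The 2 lower in liver were Klf2, at -1.79, and Klf4, at -3.06 (log2), and both were among the 6 higher in lung, at 4.72 and 3.03. Foxa3, a forkhead factor of liver and gut, was at 12.3 and 10.5 FPKM in liver, 4.98 and 4.29 in small intestine and 0.302 or less elsewhere. Cebpa, a C/EBP factor, was at 67.1 and 75.3 FPKM in liver, 40.8 and 48.1 in lung, 15.8 and 13.4 in small intestine and 7.483 and 7.495 in kidney.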

How the data were processed

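Poly(A) RNA of 8 libraries, 2 from each of 4 tissues, was measured. Per the methods, the authors mapped reads to GRCm38 (Ensembl) with STAR 2.5.3a, a version also in the submitters' processing notes, and used DESeq2's fpkm function to make the deposited FPKM values. The counting program and its use of strand are not given in the sources used here, and reads shared by overlapping or similar genes may be assigned differently.

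Reads behind each FPKM value were recovered from the steps of low values below 50 reads, of which 94.5% to 96.1% were whole within 0.02 reads. Of 52195 genes, 51844 matched a single gene of GENCODE M21, whose exon lengths, overlaps and shared 31-mers were used. The 16328 genes that reached an FPKM of 1 in 2 or more libraries were tested as log2(FPKM + 1) with limma 3.58.1 (lmFit, eBayes with trend) in R 4.3.3, over all 8 libraries with no covariate. P-values were adjusted by the Benjamini-Hochberg method over all genes tested. The procedure was tested on simulated data, at an adjusted p under 0.05 but without the limit of 1 on the log2 difference. The simulated tissues had no shift of all genes between them, unlike these data. Tables and figures were made with Python 3.11.15, pandas 2.3.3, numpy 2.4.6 and matplotlib 3.10.9.

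The members and lists were chosen with earlier results of these data known. Named genes were every member and, of the further pathway genes, the 3 with the largest called difference in each tissue and those with a mean FPKM of 100 or more in any tissue, plus markers and factors set beside a member's result. Some other pathway genes were named outside this rule, to show what the vessel wall and receptor lists held. The alternatives were other pseudocounts (0.1, 0.5), filters, scalings, limma without trend, limma-voom on recovered reads, a replicate block and each library left out. The correlations of replicate differences between tissues were -0.217 to 0.0528. Low correlations cannot show whether libraries with the same replicate number came from the same mouse, and this was not tested. Motifs were searched on both strands of RefSeq promoters. Some listed marker, factor and pathway genes are not reported here.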

Additional observations from a re-analysis of the deposited data

How the results depend on the processing

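With 2 libraries per tissue, precision was limited by their number and, for members outside their main tissue, by a few reads. Over all alternatives, 21 to 22 members were called higher in liver, 5 to 6 in kidney and 7 to 10 in lung, 21 to 24 were called lower in small intestine, 24 to 27 had a single highest tissue and 54 to 68 further pathway genes were called. With the replicate block, the counts were 21 in liver, 6 in kidney, 9 in lung, 22 in small intestine, 27 with a single highest tissue and 66 further pathway genes, the same as without it. Median-of-ratios scaling lowered the median level of plasma factors as a percent of liver to 0.189% in kidney, 0.121% in lung and 0.06586% in small intestine. Leaving out each library in turn gave medians of 0.212% (without kidney 1) to 0.313% in kidney, 0.242% (without lung 1) to 0.423% in lung and 0.0935% to 0.153% in small intestine. Of 3508 values of 195 single-gene differences, 3467 kept their direction and side of the threshold, 40 were no longer called and 1 changed direction, the difference of Pros1 between lung and liver at -0.28 after median-of-ratios scaling. Those no longer called included Fga in kidney at -0.87 with a pseudocount of 0.1, Plaur in kidney at -0.79 after median-of-ratios scaling, Thbd in kidney at -0.94 without mitochondrial genes, Serpind1 in lung at -0.99 without lung 2 and Plau in small intestine at -0.84 without small intestine 1. The cause was not tested.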
